A study of Mus musculus with 36 samples.

Results

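The 10 genes described here encode the hormones of the pituitary and the proteins that make and drive its hormone cells: Gh, Prl, Pomc, Cga, Tshb, Lhb, Fshb, Pou1f1, Ghrhr and Gnrhr, out of 29799 genes in the table. They were chosen by name after earlier results of these data had shown pituitary transcripts in some brain libraries, so their levels across libraries are a description. The libraries were made from whole brain of Chd8+/S62X mice (HT), which carry 1 copy of Chd8 with a truncating S62X mutation, and wild-type mice (WT), all of the C57BL/6 strain. Each of the 12 groups had 3 mice of 1 genotype and sex at P0 (newborn), P25 (juvenile) or P80 (adult), giving 36 libraries. A library is named below by age, sex (M or F), genotype and number, so that P80-F-HT2 is the second HT female at P80.

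The pituitary hangs below the hypothalamus on a stalk and can stay with the brain or with the skull base at dissection. Its anterior lobe holds somatotrophs (growth hormone, Gh), lactotrophs (prolactin, Prl), thyrotrophs (thyrotropin, Tshb), gonadotrophs (luteinizing and follicle-stimulating hormone, Lhb and Fshb) and corticotrophs (adrenocorticotropin, cut from the Pomc precursor), and Cga encodes the alpha subunit that the thyrotropin and gonadotropin beta subunits share. The transcription factor Pou1f1 drives the somatotroph, lactotroph and thyrotroph lineages, while Ghrhr and Gnrhr are the receptors through which hypothalamic hormones reach somatotrophs and gonadotrophs. Pomc is also made by neurons of the arcuate nucleus, inside the brain.

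Values are the authors' normalized signal, on which summed library values ran from 31872449 to 38154000. Chd8 itself was higher in HT than in WT by group mean in all 6 pairs of age and sex (ratio of 1.09 to 1.62), and in 4 of the 6 pairs every HT library was above every WT library, so the level of the gene separated the labelled genotypes at P25 and P80 without showing the stop codon. The libraries of P0 went against their whole-brain label in part. The hindbrain gene Hoxb3 read 44.7 to 2733 in 7 of the 12 libraries of P0 and 0 to 1.56 in the other 5, against 15.6 to 124.3 in the 24 libraries of P25 and P80. Neurod6, a gene of forebrain neurons, read 733.6 to 1373 in the 7 and 10232 to 13096 in the 5, and Nkx2-1, a gene of the hypothalamus and ventral forebrain, 0 to 14.6 and 238.7 to 453.1. The 7 were the 3 HT males, P0-M-WT1, P0-F-HT1, P0-F-HT3 and P0-F-WT2, so region and genotype cannot be told apart in males of P0, and a difference between P0 and P25 also compares regions. In these bulk libraries fewer cells of a type and less RNA per cell cannot be told apart.

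The starts of 8 of the 10 genes were found in the RefSeq promoter table (GRCm38.p6), and the 250 bases before 4 of them are shown because they stand for different hormone lineages whose transcripts appeared together. Capitals mark 3 motifs: the POU1F1 core ATGNATA and the NR5A1 site TGACCTTG (on either strand), and the TATA box TATAAA (as read), which may overlap. The sequences before Prl (chr13:27057320-27057569, plus strand), Pou1f1 (chr16:65520262-65520511, plus strand), Lhb (chr7:45420696-45420945, plus strand) and Pomc (chr12:3954695-3954944, plus strand) read 5′ to 3′ as follows.
Prl: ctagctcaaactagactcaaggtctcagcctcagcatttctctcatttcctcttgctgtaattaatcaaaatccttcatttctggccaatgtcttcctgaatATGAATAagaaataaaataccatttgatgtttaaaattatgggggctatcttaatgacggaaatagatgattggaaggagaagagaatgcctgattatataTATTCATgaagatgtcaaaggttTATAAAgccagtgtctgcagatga
Pou1f1: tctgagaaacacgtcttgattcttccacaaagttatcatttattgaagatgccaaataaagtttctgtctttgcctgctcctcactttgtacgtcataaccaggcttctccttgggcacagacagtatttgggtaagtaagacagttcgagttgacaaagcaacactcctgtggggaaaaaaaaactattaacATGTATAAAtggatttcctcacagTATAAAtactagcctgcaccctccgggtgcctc
Lhb: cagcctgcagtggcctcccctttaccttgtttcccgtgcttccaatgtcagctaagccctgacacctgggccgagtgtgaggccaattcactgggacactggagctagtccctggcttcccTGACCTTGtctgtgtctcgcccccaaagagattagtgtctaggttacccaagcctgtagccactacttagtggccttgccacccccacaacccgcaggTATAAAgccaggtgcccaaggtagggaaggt
Pomc: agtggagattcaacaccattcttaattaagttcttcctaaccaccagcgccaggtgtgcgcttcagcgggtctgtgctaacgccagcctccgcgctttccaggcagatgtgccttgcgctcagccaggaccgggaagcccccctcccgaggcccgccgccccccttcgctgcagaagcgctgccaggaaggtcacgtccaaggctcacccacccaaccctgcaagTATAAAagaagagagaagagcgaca
The Prl sequence held 2 POU1F1 cores, whose first bases lay 148 and 47 bases before the start, and a TATA box at 24. The Pou1f1 sequence held 1 core at 57, which overlapped the first of 2 TATA boxes (at 54 and 33), and the gene has another start in the table whose 250 bases held none of the motifs. The Lhb sequence held the NR5A1 site, the sequence bound by a gonadotroph factor, at 129. The RefSeq start of Lhb used here lies inside the gene as annotated by GENCODE (chr7:45420820-45421897). The last part of the printed Lhb sequence is therefore within that annotated gene. A TATA box was found before all 8 genes, at 24 to 33 bases in 7 of them and at 121 in Gnrhr, against 7.59% of all 32851 promoters of the same length with a match anywhere. The POU1F1 core was found in 7.92% of all promoters and the NR5A1 site in 1.33%, and each match is a description of letters, not of binding.

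To find which libraries carried the pituitary transcripts, each gene was followed through all 36 libraries. Gh (chr11:106300271-106301865, minus strand, GRCm38) was listed at 0 in 13 of 36 libraries, with a median of 5.75 and a highest value of 29150. In P80 females the HT libraries read 12.7, 29150 and 12320 and the WT libraries 25.7, 26.5 and 29.9. P80-F-HT2 and P80-F-HT3 therefore stood far above all other P80 libraries, while the first HT female lay below the 3 WT females.

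A further 3 libraries reached 1000 in Gh: P80-M-HT2 with 2640, P25-M-HT3 with 4118 and P25-M-HT2 with 1656. No library lay between 226.6 and 1656. Gh was thus at or above 1000 in 5 of 18 HT libraries and 0 of 18 WT libraries, and at or above 100 in 7 of 18 HT and 2 of 18 WT libraries. P80-F-HT2 and P80-F-HT3, whose values chose the genes, were among the 5, so nothing on genotype is read from these counts. The WT libraries over 100 were P25-M-WT2 (226.6) and P80-M-WT2 (112.6). At P0, 9 of 12 libraries were at 0, and the highest was P0-F-HT1 with 11.5.

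Prl (chr13:27057570-27065205, plus strand) followed the same libraries. In P80 females the HT libraries read 7.22, 33542 and 11013 and the WT libraries 33.7, 23.7 and 28.6. In P80 males the HT libraries read 37.6, 606.7 and 1.15 and the WT libraries 3.62, 22.7 and 1.14. P80-M-HT2 again led the males, and P25-M-HT3 led the juveniles with 239.9 against 48.0 in P25-M-HT2. The 3 HT females at P25 were listed at 0.

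**Figure D1:**
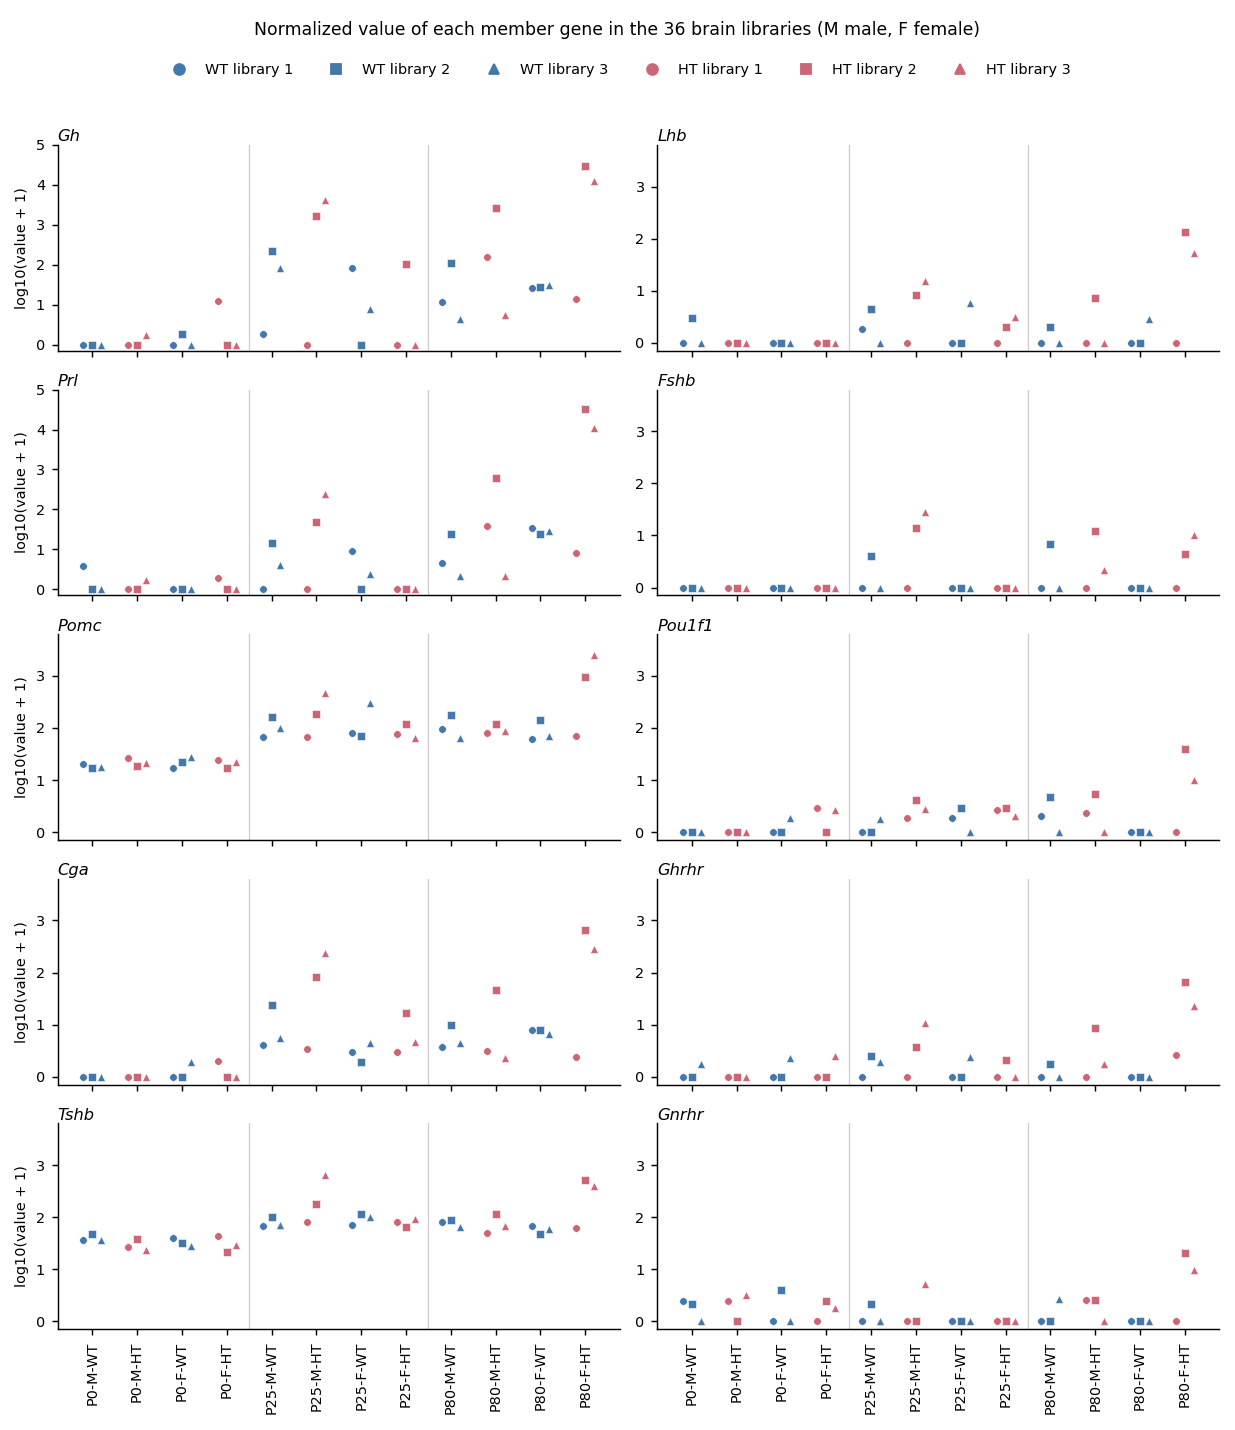
The 10 genes in the 36 libraries; the y axis is log10(value + 1) of the normalized value and the x axis the 12 groups, with 1 point per library (blue WT, red HT; shape gives the library number). Gh reaches 29150 in P80-F-HT2 and 12320 in P80-F-HT3, while Pomc and Tshb are above 0 in every library.

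The shared alpha subunit was high in the same libraries as Gh but over a smaller range. Cga (chr4:34893779-34907370, plus strand) was 662.5 in P80-F-HT2, 284.7 in P80-F-HT3, 238.2 in P25-M-HT3, 82.8 in P25-M-HT2 and 45.7 in P80-M-HT2. All other libraries were at or below 22.5, the value of P25-M-WT2. Cga was 6.46 ± 0.686 (SD, n = 3) in P80 WT females and 1.36 in P80-F-HT1.

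Tshb (chr3:102775465-102782718, minus strand) was the hormone gene with the steadiest level: it was above 0 in every library, at 20.5 to 46.9 at P0. Its highest value was not in a P80 female but in P25-M-HT3 (630.8), ahead of P80-F-HT2 (516.3) and P80-F-HT3 (401.9). In the P80 WT females it was 57.1 ± 9.39 (SD, n = 3). The gene has 6 annotated transcripts, of which the longest, 4396 bases, is not coding, and the longest coding one has 605 bases; the deposited value does not separate them.

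The gonadotropin subunits were the lowest hormone genes. Lhb (chr7:45420820-45421897, plus strand) read 136.6 in P80-F-HT2 and 51.2 in P80-F-HT3, followed by P25-M-HT3 with 14.2. Fshb (chr2:107056140-107059656, minus strand) did not follow the others: it was highest in P25-M-HT3 (27.1), then P25-M-HT2 (13.2) and P80-M-HT2 (11.2), above P80-F-HT3 (9.39) and P80-F-HT2 (3.40). The 3 libraries with the most Fshb were thus the 3 male libraries with the most Gh. Fshb was listed at 0 in all 12 libraries of P0 and in all 6 females of P25.

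Pomc (chr12:3954951-3960642, plus strand) was above 0 in every library and was the only gene led by P80-F-HT3. The P80 HT females read 68.3, 968.7 and 2547 and the WT females 60.3, 139.1 and 70.3. P25-M-HT3 followed with 477.3. P25-F-WT3 came next with 297.4, although its Gh was 7.06 and its Prl 1.35, so a raised Pomc value did not always go with Gh.

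The lineage factor and the receptors were near the lower limit of the table outside the pituitary-rich libraries. Pou1f1 (chr16:65520511-65535005, plus strand) was 37.7 in P80-F-HT2 and 9.15 in P80-F-HT3, and at most 4.43 elsewhere. Ghrhr (chr6:55376295-55388530, plus strand) was 63.7 and 21.8 in these libraries, then 9.93 in P25-M-HT3 and 7.45 in P80-M-HT2. Gnrhr (chr5:86180754-86197901, minus strand) was 19.9 and 8.66, then 4.11 in P25-M-HT3. Over the 10 genes, 150 of 360 values were 0, and the smallest value above 0 was 0.722.

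P80-F-HT2 held the highest value of 7 of the 10 genes, P80-F-HT3 of 1 (Pomc) and P25-M-HT3 of 2 (Tshb and Fshb). All 10 genes were above 0 in 4 libraries: P80-F-HT2, P80-F-HT3, P25-M-HT3 and P80-M-HT2. The 10 genes summed to 0.186% of all signal in P80-F-HT2 and to 0.0761% in P80-F-HT3. The sum was 0.0168% in P25-M-HT3, 0.0102% in P80-M-HT2 and 0.00634% in P25-M-HT2. The highest of the remaining 31 libraries was P25-M-WT2, with 0.00153%.

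Both P80-F-HT2 and P80-F-HT3 were at least 2-fold above each of the 10 other P80 libraries for 9 of the 10 genes, all but Fshb. Among 18153 genes, 0.0936% met this for P80-F-HT2 and 0.507% for P80-F-HT3. These values chose the genes, so nothing is read from the counts. Against the mean of the P80 WT females, Gh was 1067-fold in P80-F-HT2 and 451-fold in P80-F-HT3, and Prl 1169-fold and 384-fold. Pomc was 10.8-fold in P80-F-HT2 and 28.3-fold in P80-F-HT3, and Cga 103-fold and 44.1-fold. Fshb, Pou1f1, Ghrhr and Gnrhr were listed at 0 in the 3 WT females and get no fold.

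The other genes of the pituitary differed far less between these libraries. Of 34 genes of pituitary cells on a list (transcription factors, prohormone processing enzymes and receptors), 33 were in the table, and 4 were at least 2-fold above each of the 10 other P80 libraries in P80-F-HT2: the transcription factors Pitx1, Lhx3, Tbx19 and Six6. In P80-F-HT3 this held for Pitx1 alone. Pitx1, which acts early in pituitary development, read 28.5 and 46.4 in these libraries against at most 11.7 in the other P80 libraries. Tbx19, the corticotroph factor that activates Pomc, read 11.3 and 3.18 against at most 2.45. The order of the 2 libraries for Tbx19 was thus the reverse of that for Pomc.

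Sums over longer gene lists differed less. The 33 genes summed to 99259 in P80-F-HT2 and 102136 in P80-F-HT3, within the 98244 to 104601 of the other 10 P80 libraries. Gnas alone made up 48574 and 48307 of these sums. A change of genes as low as Pitx1 or Tbx19 could therefore not show in them. Of 10 genes listed as defining the anterior lobe, 9 were in the table. This list was also made with earlier results of these data known. The sums of the 9 genes were 357.5 and 297.9 against 212.1 to 331.8. P80-F-HT2 was thus above that range and P80-F-HT3 within it. Trhr, which was above 0 in every library, made up 152 and 123.1 of these sums, so they do not follow the anterior lobe alone. None of 16 hypothalamic hormone and transmitter genes was at least 2-fold above the other P80 libraries in either. Their sums were 8664 in P80-F-HT2 and 9536 in P80-F-HT3 against 8405 to 9316, so P80-F-HT3 was above that range. Of the 16 genes, 1 was above each of the 10 other P80 libraries in P80-F-HT2 and 4 in P80-F-HT3, as were 9.24% and 10.8% of all genes.

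**Figure D2:**
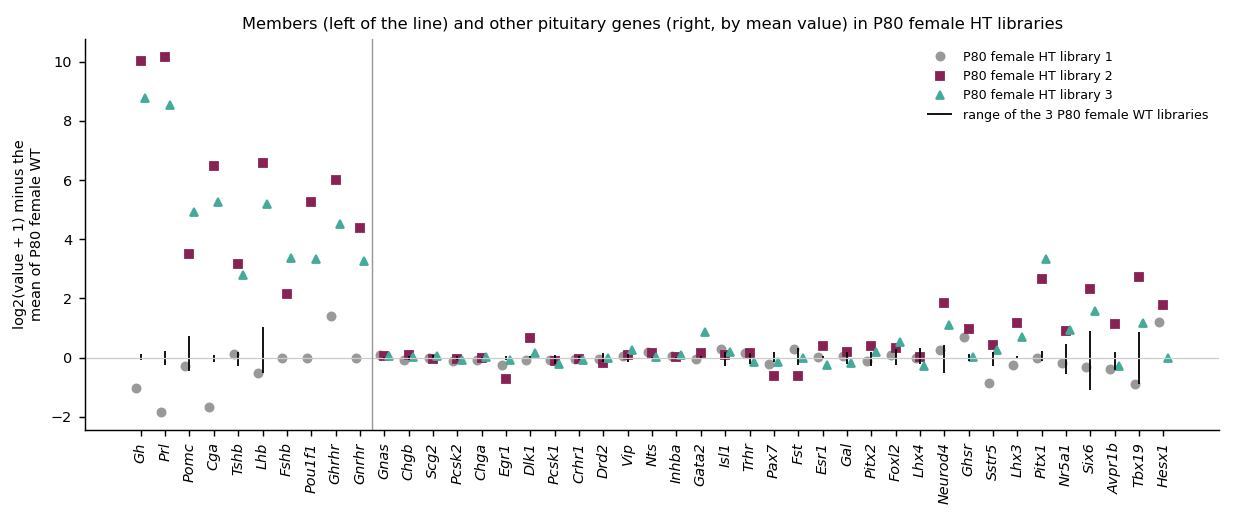
Each P80 female HT library against the mean of the 3 P80 female WT libraries, on log2(value + 1); points are libraries and vertical lines the range of the WT libraries. The 10 genes left of the line sit well above 0 in HT libraries 2 and 3 but not all in library 1, while most of the 33 other pituitary genes stay near 0. Pitx1, Tbx19 and Six6 lie above the WT range in libraries 2 and 3, with Pitx1 highest in library 3.

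Markers of blood and connective tissue were high in 1 of these libraries. P80-F-HT3 was above each of the 10 other P80 libraries for all 6 blood genes, with a sum of 20969 against 6443 to 12395 in the 10 other libraries and 8869 in P80-F-HT2. Its sum of 11 meningeal and fibroblast genes was 9799 against 5264 to 6763, and Col1a1 and Col1a2, the chains of type I collagen, were at least 2-fold above each of the 10. Adult neuron and glia genes summed to 405201 and 389589, within the 370571 to 433125 of the others. The part of blood and connective tissue in the P80-F-HT3 values was not tested.

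To describe the hormone mix, each value was divided by the median length of the gene's coding transcripts, and the 7 hormone genes were set to sum to 100%. P80-F-HT2 held 45.3% Gh, 50.6% Prl and 1.33% Pomc. P80-F-HT3 held 46.8% Gh, 40.6% Prl and 8.54% Pomc. Gh and Prl thus had shares of similar size in these females, while Pomc took a larger share in P80-F-HT3. Cga made up 1.29% and 1.36%, and Tshb 1.25% and 2.38%.

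The 3 male libraries with the most Gh held a different mix of transcripts. No baseline was subtracted, although Tshb and Pomc were above 0 in every library. In P80-M-HT2 Pomc (117.6) was below that of P80-M-WT2 (179.2). These shares therefore describe the library, not the make-up of any pituitary tissue in it. P80-M-HT2 held 73.8% Gh, 16.5% Prl and 4.91% Tshb. P25-M-HT3 held 67.6% Gh, 3.83% Prl and 16.2% Tshb, and P25-M-HT2 held 73.1% Gh, 2.06% Prl and 12.3% Tshb. In these 3 libraries Gh therefore had the largest share, and the Prl share was larger in the P80 library than in the P25 libraries. The share of Gh in the other 9 males of P25 and P80 ran from 0% to 46.5%.

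**Figure D3:**
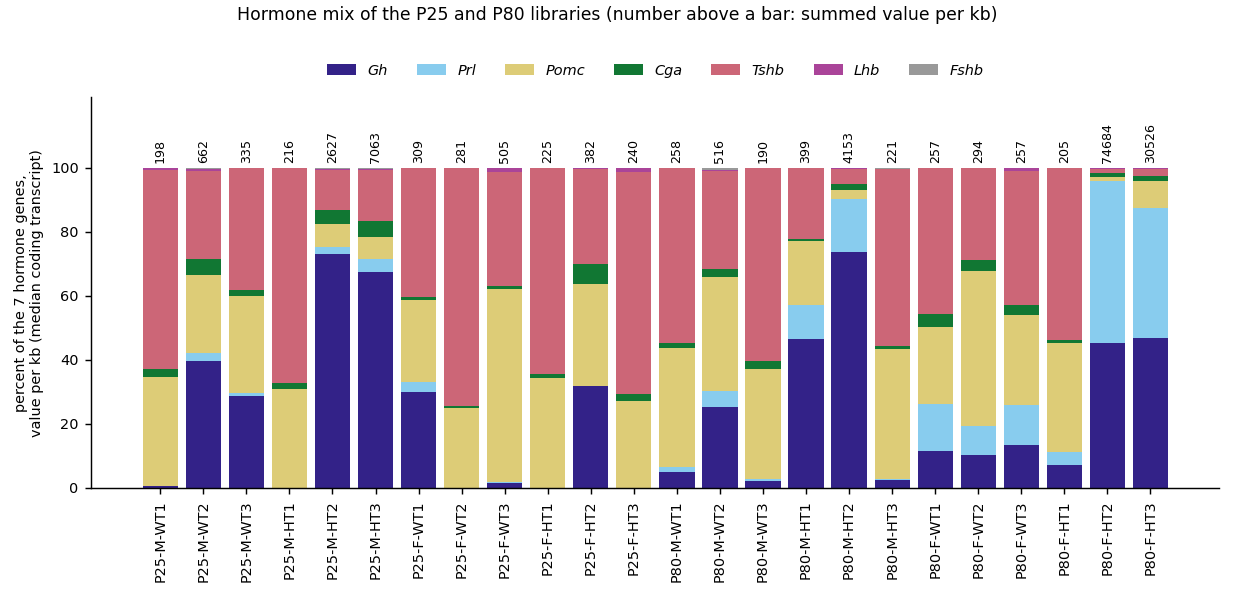
Share of each hormone gene in the sum of the 7, by value per kb, for the 24 libraries of P25 and P80; the number above each bar is the summed value per kb. Gh and Prl fill most of the bars of P80-F-HT2 and P80-F-HT3, Gh alone most of those of P80-M-HT2, P25-M-HT2 and P25-M-HT3, and Tshb and Pomc most of the others except P80-M-HT1, where Gh takes 46.5% and Prl 10.6%.

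The ratio of Prl to Gh, on normalized values, separated the sexes at P80 also in libraries with little of either. In the 6 P80 females it lay between 0.568 and 1.31, with a median of 0.928. In the 6 P80 males it lay between 0.202 and 0.339, with a median of 0.247. The ranges did not overlap, although Gh varied from 3.36 to 2640 among the males and from 12.7 to 29150 among the females. Prl was 1.15 in P80-M-HT3, 1.14 in P80-M-WT3 and 3.62 in P80-M-WT1. The smallest value above 0 was 0.722, so the ratios of these males rest on very little signal. The females with low Gh gave ratios of 0.568 (P80-F-HT1) and 0.897 to 1.31 (WT), against 1.15 and 0.894 in P80-F-HT2 and P80-F-HT3.

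At P25 the ratio was lower in both sexes. It was 0.029 to 0.0609 in the 4 males with both genes above 0, below every P80 library. It was 0.099 and 0.192 in the 2 females with both above 0, where Prl was 7.95 and 1.35. These ranges leave out libraries with Gh above 0 and Prl at 0, whose ratio was 0. They were P25-F-HT2, the P25 female with the most Gh (104.4), and P25-M-WT1 (Gh of 0.827). Since the hormone mix was part of the choice of genes, no test was made of these ratios.

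**Figure D4:**
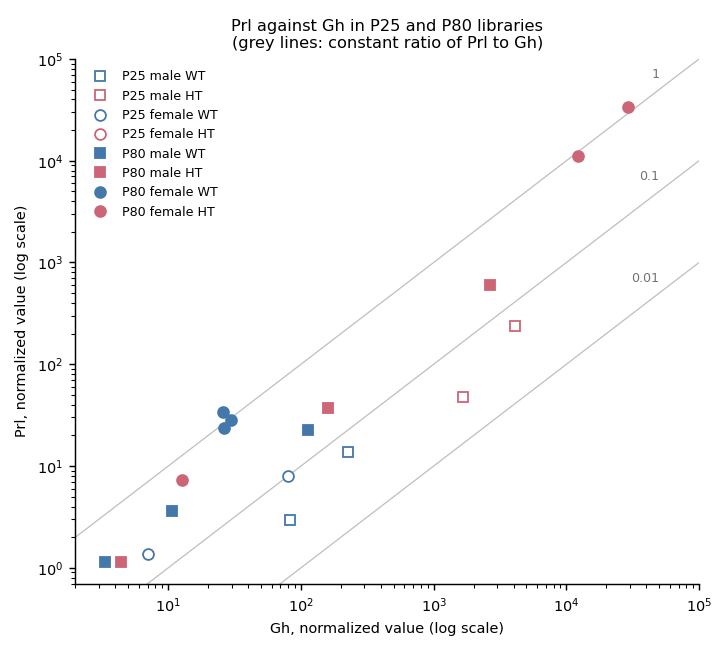
Prl against Gh, both as normalized values on log axes, for the libraries of P25 (open) and P80 (filled) with both above 0; squares are males, circles females, and grey lines mark constant ratios. P80 females lie near the line of ratio 1, P80 males between 0.1 and 1 and P25 males below 0.1.

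The P80 WT females were unusually alike in Gh, at 27.3 ± 2.22 (SD, n = 3), where the WT males were at 10.7, 112.6 and 3.36. Their mean Gh equalled 0.0659% of the summed Gh of P80-F-HT2 and P80-F-HT3, and their mean Prl 0.0644% of the summed Prl. The same percentage was 0.34% for Lhb, 0.682% for Cga, 2.56% for Pomc and 6.21% for Tshb. Gh and Prl were thus at the same small fraction of the high libraries, and the genes with a level in every library were at larger ones. Whether RNA or reads of the high libraries reached the others was not tested.

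The comparison of HT with WT asks whether the mutation goes with a change within an age and sex. It was made with limma on log2(value + 1) over all genes with a mean of at least 10, with Benjamini-Hochberg adjustment, and the 10 genes were tested only where the contrast had not chosen them and both groups had a mean of at least 10. A gene that passed through its higher group alone is described without a p. At P0, only Pomc and Tshb could be tested in either sex. In males Pomc differed by 0.25 (log2, SE 0.36, limma adjusted p = 0.813) and Tshb by -0.50 (SE 0.35, limma adjusted p = 0.69). Neither gene was called in P0 males or females, where 0% and 0.00547% of all genes were. Over the 7 libraries high in Hoxb3 Pomc read 17.3 to 25.2 and Tshb 22.1 to 42.3, within the 15.8 to 26.4 and 20.5 to 46.9 of the other 5.

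In P25 males 4 of the 10 genes could be tested (Gh, Pomc, Cga and Tshb), and 0 were called against 0.0166% of all genes. For Tshb the HT libraries read 80.4, 178.3 and 630.8 and the WT libraries 68.0, 100.1 and 70.4, so the groups overlapped. Its difference was 1.40 (log2, SE 0.59), with an unadjusted p of 0.0425 and a limma adjusted p of 1. For Gh the HT libraries read 0, 1656 and 4118 and the WT libraries 0.827, 226.6 and 82.7, a difference of 2.54 (SE 2.90, limma adjusted p = 1). The first library of each genotype was near 0 in Gh, and the other two of each genotype were higher.

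In P25 females 0 of 3 tested genes were called, against 0% of all genes. The HT libraries read 0, 104.4 and 0 for Gh, and the WT libraries 80.3, 0 and 7.06. In P80 males 0 of 3 tested genes (Gh, Pomc and Tshb) were called, against 0.0166% of all genes. The log2 difference of Gh was 2.88 (SE 1.78, limma adjusted p = 1). Prl and Cga passed the filter only through the HT libraries, and the log2 difference of Prl was 2.58 (SE 1.59). P80-M-HT2 carried most of the HT level, with 2640 for Gh against 159.9 and 4.44 in the other two. Of the genes tested, only Tshb in P25 males had an unadjusted p under 0.05 in these 5 comparisons.

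In P80 females, which chose the genes, 7 of the 10 passed the filter on low values and are described without a test. The log2 difference was 5.91 (SE 2.24) for Gh, 5.62 (SE 2.41) for Prl and 2.71 (SE 1.03) for Pomc. Only Ghrhr had every HT library (1.63, 63.7 and 21.8) above every WT library (0 in all 3); among all genes tested, 8.63% were apart in this direction. The other 6 overlapped between genotypes because P80-F-HT1 lay at or below a WT library for each.

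The WT libraries give the level of these genes in brains without the high HT libraries, and their change with age. Between P0 and P25, the 2 genes that could be tested, Pomc and Tshb, both rose, against 35.6% of all genes that rose. Pomc was at 15.8 to 26.4 in the 6 libraries of P0 and at 66.2 to 297.4 in those of P25, and rose by 2.47 (log2, SE 0.34, limma adjusted p = 3.76e-05). Tshb was at 27.3 to 46.9 and then at 68.0 to 115.5, and rose by 1.24 (SE 0.19, limma adjusted p = 8.7e-05). The ages did not overlap for either gene, as for 26.6% of all genes with higher values at P25. Gh was at 0 in 5 of 6 libraries of P0 and in 1 of 6 at P25, where it reached 226.6; it passed the filter only through P25, with a log2 difference of 3.92 (SE 1.22). Without the 2 WT libraries of P0 high in Hoxb3, an alternative chosen after seeing the data, Pomc rose by 2.51 (SE 0.39, limma adjusted p = 6.51e-05) and Tshb by 1.20 (SE 0.21, limma adjusted p = 0.000209). The libraries of P0 low in Hoxb3 read 10232 to 13096 for Neurod6, against 1316 to 1962 at P25 and P80. This setting therefore still compares regions and cannot separate region from age.

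Between P25 and P80, 0 of 3 tested genes were called, while 21.5% of all genes rose and 20.3% fell, and 1, Tshb, had an unadjusted p under 0.05. Prl was at 0 to 13.8 in the 6 WT libraries of P25 and at 1.14 to 33.7 at P80. It passed the filter only through P80, with a log2 difference of 2.04 (SE 0.78). Gh differed by 0.42 (log2, SE 1.19, limma adjusted p = 0.802), Pomc by -0.23 (SE 0.36, limma adjusted p = 0.636) and Tshb by -0.37 (SE 0.17, limma adjusted p = 0.0958).

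**Figure D5:**
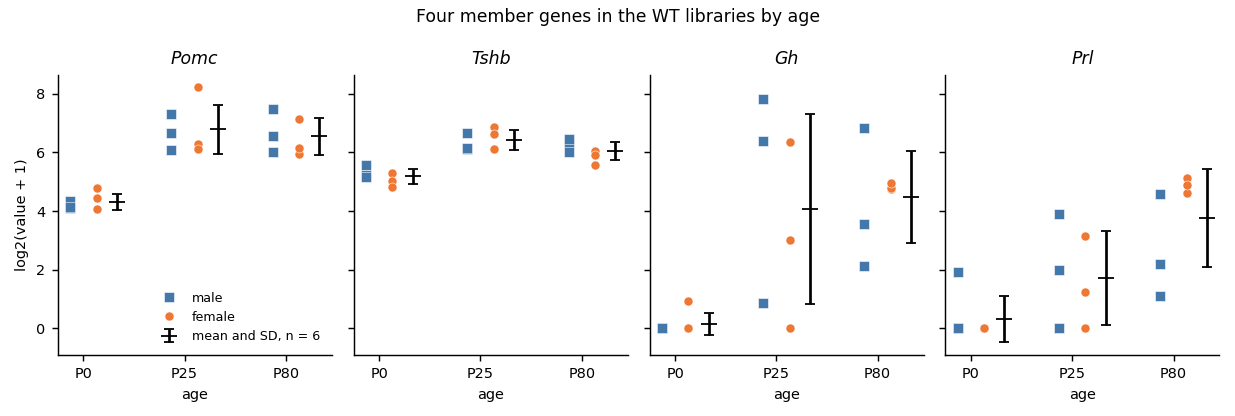
Pomc, Tshb, Gh and Prl in the 18 WT libraries by age; the y axis is log2(value + 1), points are libraries (blue squares male, orange circles female), and black bars are the mean and SD over 6 libraries. Pomc and Tshb at P0 lie below all libraries of P25, whereas Gh and Prl at P25 and P80 spread over several log2 units.

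Other genes of the pituitary axis were followed over the same ages. Of 13 hypothalamic hormone and transmitter genes tested between P0 and P25 in WT, 11 rose and 0 fell, where 35.6% of all genes rose and 35.9% fell, with a median of 2.9 (log2) against -0.00198 over all genes. Of the 10 with a mean of at least 10 at both ages, 9 rose. The neuropeptides Pmch (melanin-concentrating hormone) and Oxt (oxytocin) had the largest differences. Pmch rose by 7.37 (SE 0.97, limma adjusted p = 2.22e-05). It read 165.4 in P0-F-WT3 and at most 3.12 in the other WT libraries of P0. Oxt read at most 8.82 in WT at P0 and passed the filter only through P25, with a log2 difference of 6.69 (SE 0.49). Crh, which drives Pomc in corticotrophs, rose by 2.25 (SE 0.35, limma adjusted p = 9.79e-05), and Gnrh1, the ligand of Gnrhr, differed by -0.42 (SE 0.39, limma adjusted p = 0.353). Of 27 other pituitary genes tested, 10 rose and 4 fell, shares near or below those of all genes. Those that rose included Pcsk1 and Pcsk2, the convertases that cut the Pomc protein, at 2.47 (SE 0.22) and 1.95 (SE 0.10). Without the 2 WT libraries of P0 high in Hoxb3, 11 of 13 hypothalamic genes rose and 2 fell, and 16 of 26 other pituitary genes rose and 4 fell, where 39.8% of all genes rose and 39.8% fell. That setting still compares regions.

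From P25 to P80, 6 of 12 hypothalamic genes rose and 2 fell, where 21.5% of all genes rose and 20.3% fell. Oxt rose by 0.83 (SE 0.10, limma adjusted p = 1.5e-05) and Crh fell by 0.28 (SE 0.09, limma adjusted p = 0.0221). Of 28 other pituitary genes 7 rose and 2 fell, or 6 and 2 of the 26 with a mean of at least 10 at both ages. Drd2, the receptor through which dopamine restrains lactotrophs and which striatal neurons also express, rose by 0.40 (SE 0.08, limma adjusted p = 0.000651).

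The comparison of males with females found 0 of 2, 3 and 3 tested genes called at P0, P25 and P80, against 0.0382% of all genes at P0, 4.65% at P25 and 0.155% among WT libraries at P80. The lowest limma adjusted p was 0.267 at P25 and 0.468 at P80. Cga at P25, over both genotypes, passed the filter only through the males, with a log2 difference of 2.09 (male minus female, SE 0.85). It was at 2.40 to 238.2 in the 6 males and 0.887 to 16.0 in the 6 females, so the sexes overlapped.

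At P80 in WT, Prl was at 3.62, 22.7 and 1.14 in males and 33.7, 23.7 and 28.6 in females. All females were above all males, as for 7.98% of all genes. Prl passed the filter only through the females, with a log2 difference of -2.25 (male minus female, SE 0.71). Gh in the same libraries differed by -0.65 (SE 0.88, limma adjusted p = 0.813).

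Genes whose pattern over the 12 P80 libraries was most like that of Gh were ranked by Pearson correlation of log2(value + 1), as a description over libraries of which 2 carry most of the range. Of the 10 genes, Prl (r = 0.978), Cga (0.936), Lhb (0.925), Tshb (0.865) and Pomc (0.831) were near the top of 18153 genes. The genes outside the 10 were led by Nsun3 (0.876), Col4a6 (0.858) and Casc1 (0.838). Nsun3 was 434.2 and 430 in P80-F-HT2 and P80-F-HT3 against 348.6 to 410.8 elsewhere at P80, a far smaller range than that of Gh. Epcam, an epithelial adhesion molecule that anterior pituitary cells also carry, had r = 0.82 and read 65.9 and 104.2 against at most 25.4. The first 15 genes outside the 10 so ranked shared 0 with the first 15 outside the 10 over all 36 libraries.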

How the data were processed

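RNA was sequenced from 36 whole-brain libraries, 3 mice in each of 12 groups, with the TruSeq RNA Sample Prep Kit v2, which does not keep strand. Salmon 1.1.0 was run by the authors against GRCm38, its estimates were summed to genes by tximport, and DESeq2 1.26.0 set the libraries to one scale (versions per the submitters' processing notes); the deposited unit is this normalized signal, which is not whole counts. The annotation release is not given in the sources used here. Depth in reads cannot be read from these values, so no counting interval is given, and a 0 can be a failed estimate, although Actb, Gapdh, Rplp0 and Ppia were above 0 in every library.

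All 36 columns were matched to samples by name (adult columns are written P56, for libraries whose titles and age labels give P80), and 29747 of 29799 gene IDs to a symbol. The 10 genes, the other lists and the tests were chosen with earlier results of these data known. On log2(value + 1), a scale that understates changes of low genes, each comparison was a two-sided limma fit (version 3.58.1 in R 4.3.3, moderated with a mean-variance trend) over the genes averaging 10 or more in its libraries, with Benjamini-Hochberg adjustment over all genes tested and a threshold of 0.05. HT was compared with WT in the 6 libraries of each age and sex, ages in WT with sex as a covariate, and sexes with genotype as a covariate (at P80 in WT only). The P80 female genotype comparison chose the genes and was not tested for them, and elsewhere a gene of the 10 was tested only where both groups averaged 10 or more. Named were the 10 genes, the other pituitary genes, of each further list its most abundant and its called genes, and the 15 genes most like Gh; only those that a result turns on are printed. The script was tested on simulated data. Positions and transcript lengths are from the GENCODE annotation of GRCm38.

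Libraries with the same replicate number deviated together with all correlations over 0.1 in P25 males alone (0.289, 0.189 and 0.14, each of the 6 libraries correlating best with its own number). At P80 the correlations were 0.0433, 0.0838 and 0.0186 in males and -0.0252, 0.0717 and 0.055 in females. There 5 of the 6 male and 4 of the 6 female libraries correlated best with their own number. No source says what the number marks. Alternatives were a stricter filter and none, pseudocounts of 0.1 and 10, 1 model of all libraries, quantile normalization, a replicate block and leaving out each library, and, chosen after seeing the data, leaving out the libraries of P0 high in Hoxb3.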

Additional observations from a re-analysis of the deposited data

How the results depend on the processing

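Among the counts of called pituitary and hypothalamic genes and the other main results, 179 alternatives stayed near the main value and 20 did not. A count had to stay within 1.5 times of it, and a hormone share within the SD of the 3 libraries of its group. That SD was a loose limit, since the Gh share ran from 0% to 73.1% among P25 HT males. In P0 males the count of 0 became 1 with the replicate block, 11 in 1 model of all 36 libraries, and 0 to 22 on leaving out a library, with 22 without P0-M-WT1. Between P0 and P25 in WT the count of 29 became 19 with a mean of at least 100. The counts in this section did not require each group to reach the filter by itself. The 29 therefore include genes described above without a p, such as Oxt, and Gh was not kept out. Of the hypothalamic hormone genes in it, 11 were called, or 9 when both ages had to reach the filter. Between the sexes at P25 the count of 2 (Chga and Gnas) became 0 with no filter, with quantile normalization and with WT libraries only. It was 0 to 6 on leaving out a library, with 6 without P25-M-HT1 and 0 without each of the others except P25-M-WT1. Between the sexes at P80 in WT it was 0 to 1, with 1 without P80-M-WT2. Of the 15 genes outside the 10 most like Gh, 0 were kept over all 36 libraries. The causes of these changes were not tested.

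The direction of 2 uncalled differences between P25 and P80 in WT turned. Pomc became 0.10 (log2) without P25-F-WT3, in a range of -0.43 to 0.10 on leaving out a library. Gh, with such a range of -0.41 to 1.19, became -0.18 with a pseudocount of 10, -0.36 without P25-M-WT1, -0.41 without P25-F-WT2, and -0.03 without P80-M-WT2. The Pomc and Tshb calls between P0 and P25 held in all 20 settings, with adjusted p-values of 2e-05 to 0.000152 and 7.71e-05 to 0.000382. One of these, chosen after seeing the data, left out the libraries of P0 high in Hoxb3, where the count of 29 became 39. It still compares regions, since the libraries of P0 left in were high in forebrain genes. The P0 male comparison was not run this way, since it leaves no HT library. The replicate block changed no call among the single-gene differences followed. In P25 males, where the numbers pair the libraries, Gh, Tshb and Cga stayed uncalled with the block, as in all alternatives (lowest adjusted p of 0.517).

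The reads behind each value are unknown, each group had 3 mice, and 150 of 360 values were 0, so a difference that missed the threshold is not shown to be absent. Where 1 library carried a group, as P80-M-HT2 did for Gh, the mean of the group describes that library.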

Other observations

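Over all 36 libraries the genes most like Gh, after Cga, Prl, Pomc and Tshb, were genes of the nasal and olfactory epithelium, another tissue next to the brain at dissection. They were led by Bpifb9b (r = 0.782), Cyp2g1 (0.773) and Stoml3 (0.765), with Omp, the marker of mature olfactory sensory neurons, at 0.736. These genes were chosen after their values were seen. P80-F-HT3 read 2421 for Bpifb9b, 921.6 for Cyp2g1 and 1647 for Omp, where the median of the 12 P80 libraries was 21.2, 29.9 and 383.3. P80-F-HT2, the library with the most Gh, read 3.35, 10.4 and 238.4, below those medians for all 3. The nasal genes and the pituitary hormones were thus both high in P80-F-HT3 but not in P80-F-HT2. In juveniles, Cyp2g1 was highest in P25-M-HT3 (85.5 against a median of 4.02), which also led in Gh, whereas Bpifb9b was highest in P25-F-WT1 (450.5), whose Gh was 80.3.

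Gene lists of tissues around the brain were followed with age in WT libraries, where 35.6% of all genes rose and 35.9% fell between P0 and P25, and 21.5% and 20.3% between P25 and P80. The regions held by the libraries of P0 differed, which touches each count that starts there. Of 11 meningeal and fibroblast genes tested, 11 fell between P0 and P25, with a median of -1.4 (log2). From P25 to P80, 10 of 11 choroid plexus genes rose, with a median of 0.61, and 6 of 6 blood genes fell, with a median of -1.4. Of the 5 blood genes with a mean of at least 10 at both ages, 5 fell. Of 9 trigeminal ganglion and peripheral nerve genes tested between P0 and P25, 1 rose and 2 fell, and of 3 pineal genes 1 rose and 1 fell. Among the 7 ganglion and nerve genes with a mean of at least 10 at both ages, 0 rose and 2 fell. Of 16 hormone target and feedback receptor genes 7 rose and 6 fell, and of 9 hypothalamic transcription factor genes 0 rose and 1 fell. The gene that fell passed the filter only through P0. Among the 7 hypothalamic transcription factor genes with a mean of at least 10 at both ages, 0 rose and 0 fell. All 8 genes of adult neurons and glia rose, with a median of 2.8. Without the 2 WT libraries of P0 high in Hoxb3, a choice made after seeing the data, 11 of 11 meningeal genes fell and 8 of 8 neuron and glia genes rose. Of 7 trigeminal ganglion and nerve genes 5 then rose and 2 fell, of 16 hormone target genes 9 rose and 7 fell, and of 8 hypothalamic transcription factor genes 1 rose and 2 fell. Of all genes 39.8% rose and 39.8% fell in that setting, which still compares regions.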
